A study of Mus musculus with 16 samples.

Results

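Olfr221 and Olfr937 are mouse odorant receptor genes that were followed here as candidate receptors for whiskey lactone, an odorant that oak wood gives to aged spirits. Both were chosen from the measured values. Among all receptors they had the most negative difference between the fraction contrasts of odor and vehicle pools described below. For the 2 genes that contrast and its components are given as a description, and no limma call in them is read as a test. They are 2 of 19505 genes on the array and 2 of its 1091 odorant receptors, and each is read by 1 feature.

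An odorant receptor is a G protein-coupled receptor in the cilia of an olfactory sensory neuron, and a mature neuron expresses a single receptor gene. Binding of an odorant activates the olfactory G protein and adenylyl cyclase, opens the cyclic nucleotide-gated channel and depolarises the cell. Transcription of the calcium-binding protein gene S100a5 follows this activity, and the Kentucky assay uses a reporter of S100a5 to sort the neurons that responded to an odor in a freely behaving mouse. The receptor transcripts of each fraction then show which receptors its neurons carry.

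The animals were S100a5-tauGFP mice of the C57BL/6 strain, 24 of both sexes and 7 to 12 weeks old, and each stayed 40 h in a ventilated chamber (3.1 L/min). After the first 26 h, whiskey lactone (odor) or filtered air (vehicle) was pulsed for 10 s, once every 20 min. All mice carried the reporter, and cells of the dissociated olfactory mucosa from 3 mice formed a pool. The 4 odor pools and 4 vehicle pools were each sorted by green fluorescence, which gave 4 groups of 4 arrays: odor titled GFP+, odor titled GFP-, vehicle titled GFP+ and vehicle titled GFP-. Fractions are named by the sample titles, because the cell type field names the fraction the opposite way in all 16 arrays.

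Every pool had less S100a5 signal in its array titled GFP+. Its log2 signal was 14.93 to 15.64 in the odor arrays titled GFP+ and 16.42 to 16.74 in the odor arrays titled GFP-, and 15.01 to 15.64 and 16.23 to 16.62 in the vehicle arrays titled GFP+ and titled GFP-. The reporter gene was therefore higher in the fraction titled GFP-, which the cell type field calls GFP+, and with that field every fraction difference below changes sign. Omp, which encodes olfactory marker protein in mature neurons, was between 18.43 and 18.83 in all 16 arrays, so both fractions held such neurons. The 10 neutrophil markers were higher in the fraction titled GFP+ in both treatments, with a mean log2 signal of 13.60 to 15.67 in odor arrays titled GFP+, 5.97 to 7.27 in odor arrays titled GFP-, 14.08 to 15.19 in vehicle arrays titled GFP+ and 6.11 to 7.43 in vehicle arrays titled GFP-. With 4 arrays a group, precision is limited by their number.

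The DNA ahead of both genes, which lie on different chromosomes, is shown as a description. The choice of the 2 genes makes their patterns alike, and a shared control was not tested. The windows are RefSeq's, of build GRCm38.p6, 250 bases before to 50 after the gene's start, on the minus strand and 5′ to 3′. Both gene models have a length of 936 bases and begin with the start codon at base 251, so the window is the sequence next to the coding part and need not hold the transcription start. Capitals mark TAATTA, or TAATTG on either strand, core letters of homeodomain sites such as those of Lhx2.
Olfr221 upstream, chr14:52036060-52036359: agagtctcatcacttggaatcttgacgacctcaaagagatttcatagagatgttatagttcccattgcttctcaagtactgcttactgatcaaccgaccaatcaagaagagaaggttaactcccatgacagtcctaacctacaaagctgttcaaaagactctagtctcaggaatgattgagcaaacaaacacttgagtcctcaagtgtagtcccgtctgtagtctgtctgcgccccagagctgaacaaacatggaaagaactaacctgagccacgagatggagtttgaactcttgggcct
Olfr937 upstream, chr9:39060615-39060914: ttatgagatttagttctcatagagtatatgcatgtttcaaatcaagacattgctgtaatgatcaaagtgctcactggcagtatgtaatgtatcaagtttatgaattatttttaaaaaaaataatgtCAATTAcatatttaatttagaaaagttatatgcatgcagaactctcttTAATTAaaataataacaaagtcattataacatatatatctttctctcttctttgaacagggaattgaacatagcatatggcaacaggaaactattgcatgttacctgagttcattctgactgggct
Olfr937 holds TAATTA at bases 175 to 180 and the reverse of TAATTG at bases 127 to 132, and the 2 do not overlap. Olfr221 holds neither. TAATTA was found in 18.6% of 948 receptor windows and in 5.29% of all 32851 windows, and TAATTG in 23.2% of receptor windows and 8.0% of all windows. CCCNNGGG, the core letters of sites of the Ebf factors, which reads the same on both strands, was in neither window and in 3.06% of receptor windows, against 13.7% of all windows. A match is a description of letters in this window.

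Olfr221, also named MOR205-1, lies on chromosome 14. Its log2 signal was 7.22, 6.63, 6.24 and 9.05 in the odor arrays titled GFP+ of pools 1 to 4, and 11.42, 12.12, 11.54 and 11.58 in the odor arrays titled GFP- of the same pools. In the vehicle arrays it was 10.41, 10.54, 10.07 and 10.13 in those titled GFP+ and 8.96, 8.26, 8.49 and 9.72 in those titled GFP-. The arrays of the odor fraction titled GFP- were the highest of the 16, and 3 of the 4 of the odor fraction titled GFP+ were the lowest. The array of the odor fraction titled GFP+ of pool 4, at 9.05, overlapped the vehicle arrays titled GFP-, which were all below the vehicle arrays titled GFP+. In the fraction titled GFP+ every odor array was below every vehicle array, as for 1.04% of all genes, and in the fraction titled GFP- every odor array was above, as for 2.44%; nothing is read from these shares, since the choice of the gene used them.

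Within single pools the log2 difference of Olfr221, titled GFP+ minus titled GFP-, was -4.19, -5.48, -5.30 and -2.53 in odor pools 1 to 4. In vehicle pools 1 to 4 it was 1.45, 2.27, 1.59 and 0.41. The mean difference was -4.38 ± 1.36 in odor pools and 1.43 ± 0.77 in vehicle pools (SD, n = 4 each), so the receptor was on opposite sides of the sort in the 2 treatments, in every pool. The difference between treatments was -5.81 ± 0.56 (SE) on the log2 scale. Every odor pool was below every vehicle pool, an order that 1.1% of all genes showed. Nothing is read from that share, since the gene was chosen on this difference.

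Olfr937, also named MOR171-24, lies on chromosome 9. Odor arrays titled GFP+ read 5.55, 6.41, 4.74 and 7.18 on the log2 scale in pools 1 to 4, and odor arrays titled GFP- read 9.53, 9.33, 9.18 and 9.98. The vehicle arrays gave 8.34, 8.30, 7.40 and 7.83 in those titled GFP+ and 7.86, 8.20, 8.79 and 8.89 in those titled GFP-. Again the odor fraction titled GFP- was highest, the odor fraction titled GFP+ was lowest, and neither overlapped the vehicle group of its own fraction. In the arrays titled GFP+ the gap was narrow, from 7.18 after odor to 7.40 after vehicle. Such an order was found for 1.04% of all genes in the fraction titled GFP+ and 2.44% in the fraction titled GFP-. Nothing is read from these shares, since the choice of the gene used them. The 2 vehicle fractions overlapped each other.

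The log2 difference of Olfr937 between fractions was -3.99, -2.92, -4.44 and -2.80 in odor pools 1 to 4, and 0.48, 0.10, -1.39 and -1.06 in vehicle pools 1 to 4. Its mean was -3.54 ± 0.80 in odor pools and -0.46 ± 0.90 in vehicle pools (SD, n = 4 each). Vehicle pools thus showed no common side for Olfr937, and all odor pools placed it in the fraction titled GFP-. The difference between treatments was -3.07 ± 0.46 (SE).

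**Figure D1:**
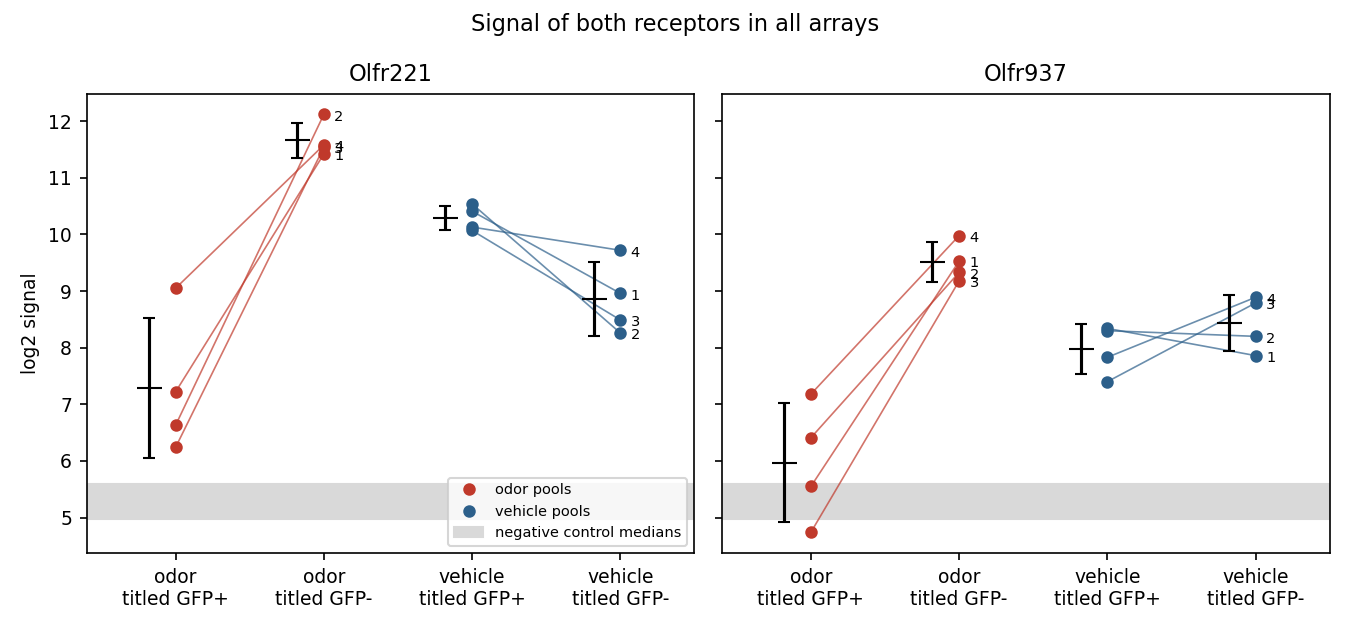
Log2 signal (y axis) of Olfr221 (left) and Olfr937 (right) in the 16 arrays, by treatment and titled fraction (x axis). Points are arrays, lines join the 2 fractions of a pool, numbers are pool numbers, black bars are group means ± SD (n = 4), and the grey band spans the negative control medians of the arrays (4.98 to 5.59). The red lines of the odor pools all climb to the fraction titled GFP-, while the blue lines of the vehicle pools fall for Olfr221 and point both ways for Olfr937.

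The signals can be set against the 5222 negative control features, whose own spread was wide. Olfr221 exceeded the negative control median in all 16 arrays and their 95th percentile in 4 of 4 odor arrays titled GFP- and 4 of 4 vehicle arrays titled GFP+, but in 0 of 4 odor arrays titled GFP+ and 1 of 4 vehicle arrays titled GFP-. Olfr937 was below the control median in 1 of 4 odor arrays titled GFP+, the one of pool 3, and above it in the other 15. It exceeded the 95th percentile in 2 of 4 odor arrays titled GFP- and in no other array. In the odor fraction titled GFP+ both receptors were thus within the spread of the controls, and the size of each difference that rests on those arrays is uncertain. Cross-hybridisation between related receptor genes was not tested.

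Among odor pools, pool 4 had the smallest fraction difference for both receptors. Its array titled GFP+ had the highest signal of its group for both, 9.05 for Olfr221 and 7.18 for Olfr937. The same array had the lowest neutrophil marker mean of its group, 13.60, against 14.46 to 15.67 in the other 3, while its mature neuron markers averaged 15.56, inside the range of 15.34 to 15.67. The other 1104 odorant and trace amine-associated receptors were parted about as strongly in pool 4 as elsewhere, with a median absolute log2 difference of 1.53 against 1.46 to 1.57 in the other odor pools and 1.29 to 1.63 in vehicle pools. The part of these markers in the pool 4 values was not tested.

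The treatments were also set side by side within each fraction. In the arrays titled GFP+, Olfr221 averaged 7.29 ± 1.24 after odor and 10.29 ± 0.22 after vehicle (SD, n = 4 each), a log2 difference of -3.0. In the arrays titled GFP- it averaged 11.66 ± 0.31 after odor and 8.86 ± 0.65 after vehicle, a difference of 2.80. The lower signal in one fraction and the higher signal in the other were similar in size on the log2 scale. Olfr937 averaged 5.97 ± 1.05 after odor and 7.97 ± 0.44 after vehicle in the arrays titled GFP+ (difference -2.0), and 9.51 ± 0.35 after odor and 8.44 ± 0.49 after vehicle in those titled GFP- (difference 1.07). In these sorted bulk samples, fewer cells of a type and less RNA per cell cannot be told apart.

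Among 1106 odorant and trace amine-associated receptors, Olfr221 had the lowest odor minus vehicle difference in the arrays titled GFP+ and the highest in those titled GFP-. Olfr937 stood second lowest in the arrays titled GFP+ and 9th from the top in those titled GFP-. The middle 95% of the receptors lay between -0.79 and 0.82 in the arrays titled GFP+ and between -0.69 and 0.79 in those titled GFP-. A pattern of no overlap in both fractions, with odor below vehicle in the arrays titled GFP+ and above it in those titled GFP-, was found for 4 of 19505 genes (0.0205%). These were Olfr221, Olfr937, the vomeronasal receptor gene Vmn1r138 and the metalloprotease gene Tll2. Their difference of fraction contrasts was -0.80 for Vmn1r138 and -0.78 for Tll2, which was named after its values were seen. Vmn1r138 averaged 2.70 to 3.61 in the 4 groups, below the negative control medians of 4.98 to 5.59, and Tll2 averaged 5.0 to 5.76, at about those medians. The pattern with the signs exchanged was found for 3 genes (0.0154%), none of them a receptor. The choice of Olfr221 and Olfr937 used these differences. Their ranks and their place among the 4 genes are therefore a description, and nothing is read from them.

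**Figure D2:**
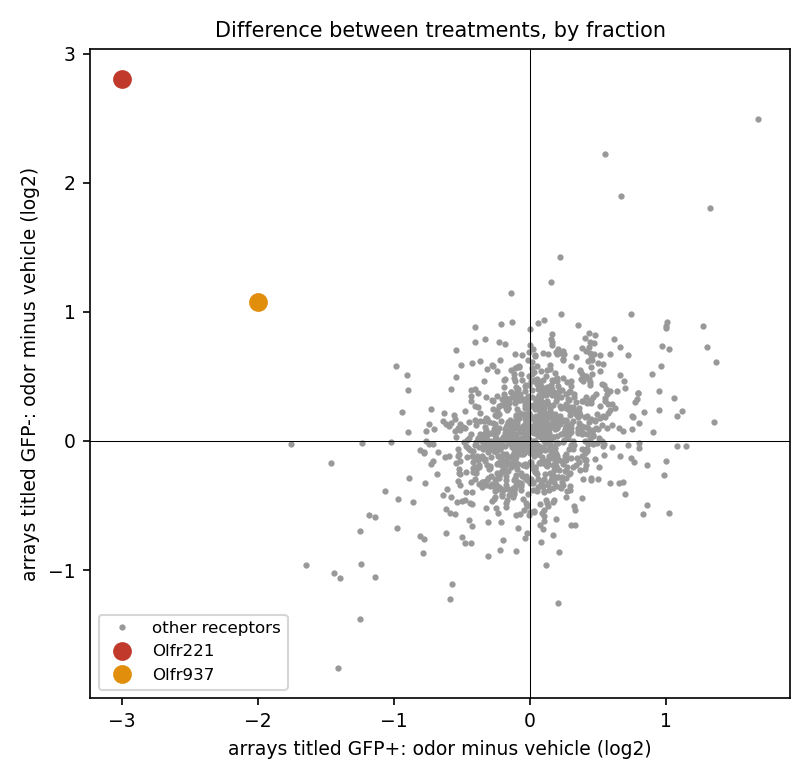
Odor minus vehicle log2 difference in arrays titled GFP+ (x axis) and in arrays titled GFP- (y axis) for 1106 odorant and trace amine-associated receptors, 1 point per gene, n = 4 arrays per group. Olfr221 (-3.0 and 2.80) and Olfr937 (-2.0 and 1.07) lie farthest to the upper left, with lower signal after odor in the fraction titled GFP+ and higher signal in the fraction titled GFP-.

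The mean log2 signal of both fractions of a pool was compared as well. In this balanced design it is orthogonal to the difference of the fraction contrasts. It is independent of the choice of the 2 genes only where both fractions vary alike, and in odor pools they did not. The SD of Olfr221 was 1.24 in odor arrays titled GFP+ and 0.31 in those titled GFP-, and that of Olfr937 was 1.05 and 0.35. The tests of the 2 receptors given here are therefore not free of the choice. For Olfr221 the mean of both fractions was 9.48 ± 0.60 in odor pools and 9.57 ± 0.29 in vehicle pools (SD, n = 4 each). The difference was -0.10 (95% confidence interval -0.66 to 0.47; limma, adjusted p = 0.981), lower in odor for 3 of 4 pools against the vehicle pool of the same number. For Olfr937 it was 7.74 ± 0.67 in odor pools and 8.20 ± 0.13 in vehicle pools, a difference of -0.46 (95% confidence interval -1.06 to 0.13; limma, adjusted p = 0.871), likewise lower in 3 of 4. Neither receptor passed the threshold, and the intervals leave room for changes of up to 0.66 and 1.06 on the log2 scale. The limma test called 0 of 19505 genes here (0.0%), and 1140 (5.84%) had an unadjusted p under 0.05. Pools of the same number deviated together, and with the replicate number as a block 11 genes were called, neither receptor among them: Olfr221 had -0.10 (-0.41 to 0.22; limma, adjusted p = 0.887) and Olfr937 -0.46 (-0.88 to -0.05; limma, adjusted p = 0.489). The mean weighs both fractions alike and is not the amount in the whole mucosa.

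Many receptors differed between the fractions in both treatments. In the odor pools 27.5% of all genes passed an adjusted p of 0.05 between fractions in limma, and in the vehicle pools 26.0%. In all, 3 receptors had a fraction difference below 0 in 4 of 4 odor pools and above 0 in 4 of 4 vehicle pools, a pattern met by 0.149% of all genes. Olfr221 was among them, and nothing is read from its place there, since the choice used these differences. The others were Olfr1306, with a mean difference of -0.48 in odor pools and 0.30 in vehicle pools, and Olfr74, named after its values were seen, with -0.27 in odor pools and 0.89 in vehicle pools. Olfr74 averaged 3.97 to 4.90 in the 4 groups, below the negative control medians.

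**Figure D3:**
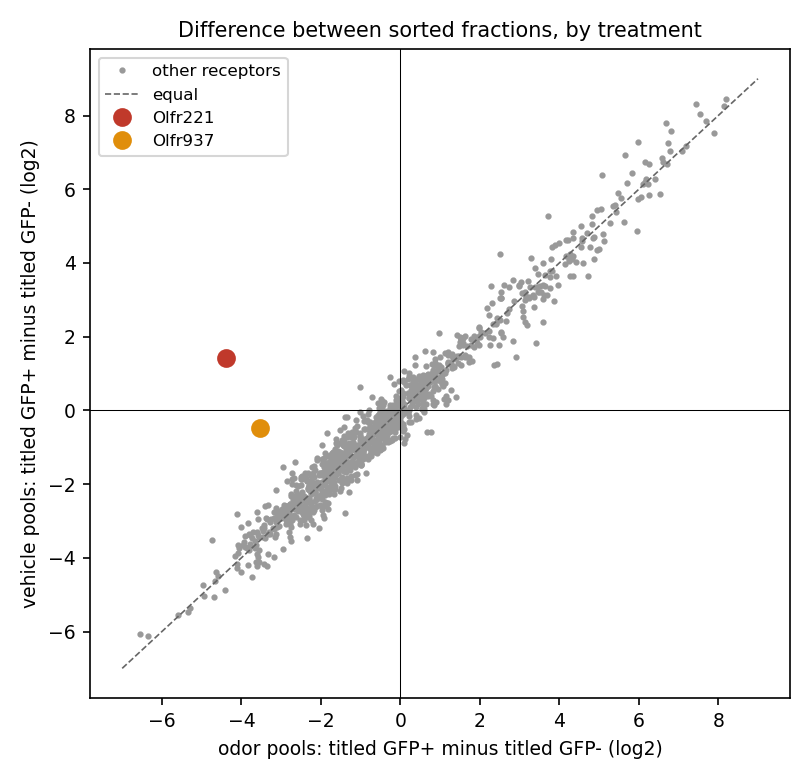
Log2 difference between fractions, titled GFP+ minus titled GFP-, in odor pools (x axis) and vehicle pools (y axis) for 1106 odorant and trace amine-associated receptors, 1 point per gene, n = 4 pools per treatment. The dashed line marks equal differences. Olfr221 (-4.38 and 1.43) and Olfr937 (-3.54 and -0.46) stand away from the line that the other receptors follow.

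The difference of the fraction contrasts was past the threshold for 1 of 19505 genes (0.00513%), which was Olfr221 itself, and nothing is read from that count, since the gene was chosen on it. The same holds within the fraction titled GFP+, where 1 gene was called (0.00513%) and 951 had an unadjusted p under 0.05 (4.88%). Within the fraction titled GFP- limma called 0 genes (0.0%), and 1147 had an unadjusted p under 0.05 (5.88%). There the replicate numbers paired the pools, and with them as a block 14 genes were called, Olfr221 and 2 other receptors among them; nothing is read from the call of Olfr221. For the difference of the fraction contrasts, to which the following values belong, limma called 0 of the other 1104 receptors. The 6 with the smallest p were Olfr905 (-1.29 ± 0.27, SE), Olfr597 (0.99 ± 0.24), Olfr1241 (-1.73 ± 0.43), Olfr769 (1.46 ± 0.37), Olfr691 (1.40 ± 0.36) and Olfr229 (-1.42 ± 0.37), each with a limma adjusted p of 0.999. Olfr1241 had the largest negative value after the 2 chosen genes, and it reached -1.73 against -3.07 for Olfr937. Olfr905 was lower in the arrays titled GFP+ in both treatments, by -4.11 in odor pools and -2.82 in vehicle pools.

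Receptor genes lie in clusters, and neighbours often share sequence, so the nearest receptors show whether a stretch of chromosome moved together. On chromosome 14, the 5 measured receptors on each side of Olfr221 in RefSeq order are Olfr746, Olfr747, Olfr748, Olfr749 and Olfr750 on one side and Olfr1513, Olfr1512, Olfr1511, Olfr1510 and Olfr1509 on the other. Their differences of fraction contrasts ran from -0.59 ± 0.40 (Olfr747) to 0.57 ± 0.29 (Olfr749), with a median of 0.18 against 0.00 for all genes. Olfr747 averaged 4.04 to 4.72 in the 4 groups, below the negative control medians of 4.98 to 5.59. Olfr746 was also dim, with 3.73 to 5.6. None of the 10 was called by limma, and 0 of 10 had an unadjusted p under 0.05, against 3.27% of all genes. Olfr750 was higher in the arrays titled GFP+ in both treatments, by 4.33 ± 0.34 in odor pools and 4.10 ± 0.34 in vehicle pools, and Olfr748 lower in both, by -3.59 ± 0.23 and -3.97 ± 0.23 in odor and vehicle pools (limma, all 4 adjusted p 1.07e-06 or less). Of the 10, 8 were lower and 1 was higher in odor pools and in vehicle pools alike, where 14.7% of all genes were lower and 12.8% higher in odor pools and 13.6% lower and 12.3% higher in vehicle pools. Among the 1089 other odorant receptors 529 were lower and 252 higher in odor pools, and 519 lower and 259 higher in vehicle pools.

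Around Olfr937 on chromosome 9 the measured neighbours are Olfr933, Olfr934, Olfr935, Olfr146 and Olfr936 on one side and Olfr938, Olfr27, Olfr943, Olfr944 and Olfr1537 on the other. Their differences of fraction contrasts ran from -0.75 ± 0.57 (Olfr935) to 0.25 ± 0.33 (Olfr934), with a median of -0.27, and 0 of 10 were called or had an unadjusted p under 0.05. The neighbours themselves were sorted both ways. Olfr943 was higher in the arrays titled GFP+, by 2.74 ± 0.34 in odor pools and 3.34 ± 0.34 in vehicle pools, and Olfr934 lower, by -2.48 ± 0.23 and -2.73 ± 0.23 in odor and vehicle pools. In the values as deposited, each of the 10 had the same sign in both treatments, as had 9 of the 10 nearest receptors of Olfr221. The exception there was Olfr747, with -0.53 in odor pools and 0.06 in vehicle pools. Its signal was below the negative control medians, as was that of Olfr936, with group means of 2.9 to 3.46. The signs of these genes therefore carry little weight.

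**Figure D4:**
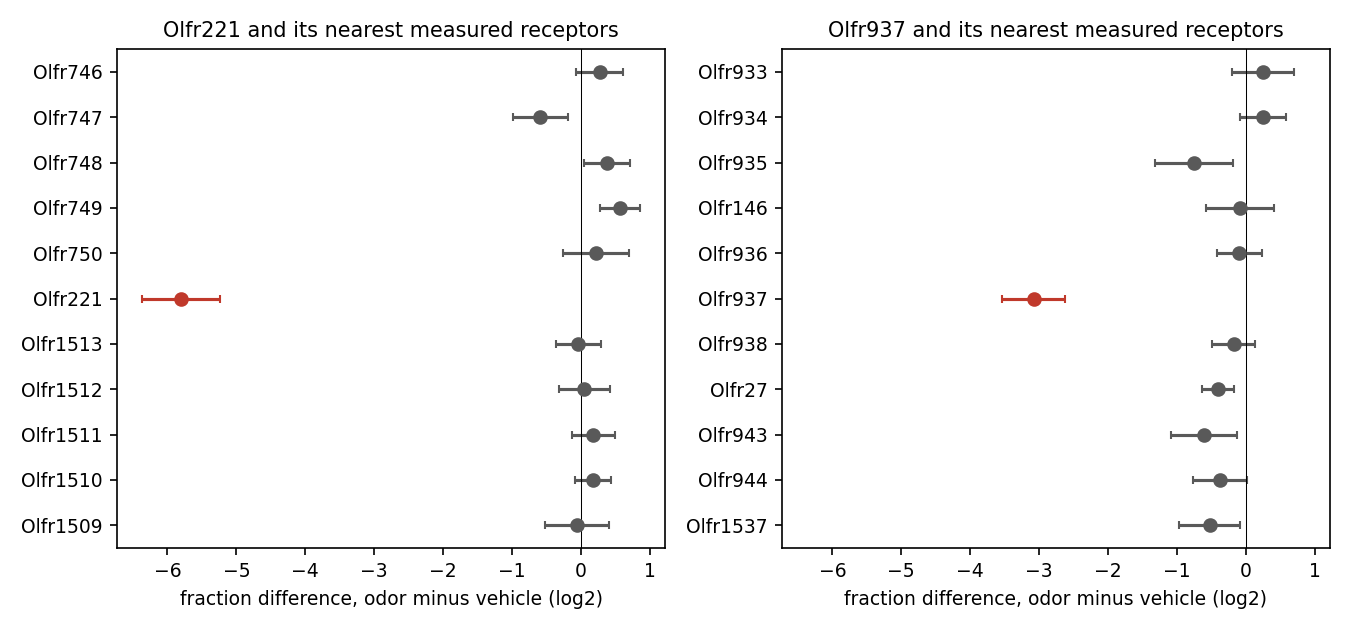
Difference of the fraction contrasts, odor minus vehicle (x axis, log2, bars ± SE from limma), for Olfr221 (left) and Olfr937 (right) and the 5 nearest measured receptors on each side (y axis, in chromosome order). The neighbours lie between -0.75 and 0.57, against -5.81 for Olfr221 and -3.07 for Olfr937.

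Relatives by sequence were read from the MOR names in the RefSeq gene table, in which the number before the hyphen stands for a receptor family grouped by sequence similarity. Olfr221 is the 1 gene named MOR205, so these names gave no relative to compare. Receptors alike to it in protein sequence were not looked for. Olfr937 belongs to the MOR171 family, with 47 RefSeq genes, of which 36 others were measured, 35 of them on chromosome 9. The family includes Olfr160, the M72 receptor, which is known to respond to acetophenone. None of the 36 passed the threshold for the difference of the fraction contrasts, and the values ran from -1.42 ± 0.37 (Olfr229) to 0.73 ± 0.71 (Olfr930) with a median of -0.09. Olfr229 was the 1 member of the 36 with an unadjusted p under 0.05 (limma, adjusted p = 0.999), against 3.27% of all genes.

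The other MOR171 receptors lay on both sides of the sort. Of the 36, limma called 8 up and 20 down in arrays titled GFP+ of odor pools, with a median of -1.02, against 12.8% of all genes up, 14.7% down and a median of -0.15. Of the 1089 odorant receptors other than the 2, 252 were up and 529 down there, with a median of -0.64. In vehicle pools it called 9 up and 19 down, with a median of -1.07, against 12.3% of all genes up, 13.6% down and a median of -0.14, and against 259 up and 519 down of the 1089, with a median of -0.61. In the values as deposited, each of the 36 had the same sign in both treatments. Some of them were dim, such as Olfr926 and Olfr951, with group means of 3.47 to 4.88 and 4.34 to 4.66. Those means lie below the negative control medians of 4.98 to 5.59. Olfr972 had the largest difference, 6.10 ± 0.24 in odor pools and 6.13 ± 0.24 in vehicle pools (limma, adjusted p = 7.93e-10 and 7.72e-10). Olfr160 was lower in the arrays titled GFP+, by -3.90 ± 0.29 in odor pools and -3.41 ± 0.29 in vehicle pools, so its difference between treatments was -0.49 ± 0.41 (limma, adjusted p = 0.999). Olfr971 had the lowest treatment difference of the family over both fractions, -1.59 on the mean log2 scale, and was lower after odor in both fractions, by -1.41 in the fraction titled GFP+ and -1.76 in the fraction titled GFP-, so its place in the sort differed by 0.35 ± 0.49. Its mean over both fractions did not pass the threshold without the replicate block (limma, adjusted p = 0.272) and did with it (limma, adjusted p = 0.00391). For Olfr971 the odor arrays titled GFP+ averaged 4.56, below the negative control medians. The sizes of its -1.41 and -1.59 are therefore uncertain.

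The signalling genes that carry a receptor's response were examined in the same contrast. Of 14 measured genes of the olfactory cascade, from the G protein subunit Gnal and the cyclase Adcy3 to the channel Cnga2 and the exchanger Slc24a4, 0 passed the threshold for the difference of the fraction contrasts in limma, 0 had an unadjusted p under 0.05, and the values ran from -0.25 (Camk2b, a kinase subunit) to 0.52 (Cngb1, a channel subunit). In this contrast 3.27% of all genes had an unadjusted p under 0.05. The feature of Cngb1 averaged 5.06 to 5.73 in the 4 groups, at about the negative control medians of 4.98 to 5.59. Of 13 measured genes linked to neuronal activity, 0 were called and 1 had an unadjusted p under 0.05, the potassium channel subunit gene Kcng1 (-0.75 ± 0.20). S100a5 itself differed by -0.11. Of 5 genes of receptor export, such as Rtp1, 0 were called, with values from -0.18 to 0.36, and of 20 immediate early genes 0 were called and 2 had an unadjusted p under 0.05, among them the nuclear receptor gene Nr4a2 (1.46 ± 0.44). The immediate early list had a median of 0.43, with 17 of 20 values above 0, against a median of 0.00 and 9759 of 19505 values for all genes. Its mean log2 signal ran from 9.42 to 11.34 among vehicle arrays titled GFP+ alone. The listed genes share the same arrays, so they are not 20 separate observations. Of the marker lists of cell types limma called 0 members in this contrast, and 0 to 2 of each list had an unadjusted p under 0.05. The median was -0.04 for 10 neutrophil genes (-0.26 to 0.31), -0.02 for 8 macrophage genes (-0.76 to 0.21) and -0.05 for 8 sustentacular genes (-0.33 to 0.31). It was 0.11 for 8 microvillar genes (-0.53 to 0.66) and -0.04 for 7 basal progenitor genes, which ran from -0.66 (Trp63) to 1.08 (Mki67). Among neuron markers it was 0.01 for 9 immature neuron genes (-0.57 to 0.78) and 0.01 for 15 mature neuron genes (-0.13 to 0.52). The value of 0.52 was again that of Cngb1.

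Likeness of pattern was described by Pearson's r of log2 values, across genes of the same arrays and with no test. Olfr221 and Olfr937 had an r of 0.857 over the 16 arrays and of 0.914 over the 8 fraction differences of the pools. Within the 4 odor pools alone r was 0.436, and within the 4 vehicle pools 0.459, so the high value rests mainly on the treatments. Both genes were chosen on the same difference of fraction contrasts, and that choice by itself makes their patterns alike, so nothing is read from their correlation or rank. Over the 16 arrays Olfr937 was second among all genes in likeness to Olfr221, after the zinc finger gene Zfp521 (r = 0.873) and before Slc22a29 (0.812), Stom (0.808) and Kcnh5 (0.805). Over the 8 fraction differences, Olfr1306 (0.974), Lrrc42 (0.964), Grpr (0.962), Ythdc2 (0.959) and Olfr905 (0.952) were most like Olfr221, and Olfr937 came 15th.

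Of the 19 genes named here as alike, 8 had all 4 group means below the negative control medians, namely Grpr, Slc22a29, Kcnh5, Erich5, Vmn1r138, Clec18a, Ibsp and Tbata, and 11, these 8 included, had at least 1 group mean below the highest of those medians, so their ranges are given as values only. Over the 8 fraction differences Olfr221 ranged over 7.76 log2 units and Olfr937 over 4.92, against 1.23 for Olfr1306, 0.80 for Lrrc42, 0.68 for Grpr, 0.59 for Ythdc2 and 2.00 for Olfr905. The genes most like Olfr937 over the 8 fraction differences were Erich5 (r = 0.949), Vmn1r138 (0.928), Sprtn (0.926), Clec18a (0.924) and Ibsp (0.920), none with a range above 1.61. Over the 16 arrays they were Ankib1 (0.880), Skor1 (0.878), Eml1 (0.877), Tbata (0.874) and Ndufaf5 (0.874), with ranges of 0.95 to 1.86. With 8 or 16 points and 19505 genes, high correlations were also found for genes of small range.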

How the data were processed

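The labelling input was 50 to 100 ng of total RNA for each of 16 Affymetrix arrays of sorted cells, per the labels' protocols. The authors deposited log2 signals. Per the submitters' processing notes the tool was Affymetrix Expression Console, of which no version, normalization or background correction is stated. The log2 scale was read from the values, and no array was normalized again. A platform annotation named 19572 of 28846 features with 1 symbol (0 with several, 9274 unnamed), all matched by gene number to RefSeq GRCm38.p6. The feature with the highest mean was kept for each of 19505 genes, with no filter on dim genes. No coordinates of the array design were used.

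Groups and pools follow the sample titles, which tie 2 fractions to a pool by treatment and number. Pools are separate groups of mice. Fraction differences were fitted in limma 3.58.1 (R 4.3.3; lmFit, eBayes with a variance trend, two-sided, Benjamini-Hochberg over all genes, threshold 0.05) on all 16 arrays, each pool being a fixed block. Within fractions, treatments were compared on group means, pools entering as random blocks (correlation 0.164), and over both fractions on the 8 pool means. The steps were tested on simulated data. Protein identity was planned for choosing related receptors; no protein table was used here, and MOR family names took its place, chosen after the data had been seen. Members, lists, neighbours and tests were chosen with earlier results of these data known.

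The rule for named genes took the 2 receptors, S100a5 and Omp, the 5 nearest measured receptors on each side, the 5 most alike genes by Pearson's r over pools and over arrays, the receptors past the threshold or of smallest p up to 8, and up to 4 members of each list with the largest values; other names are marked in the text. Whether replicate numbers pair the pools was checked on deviations from group means: same-numbered pools of odor and vehicle had an r of 0.216 to 0.389 for the mean of both fractions and 0.198 to 0.279 in arrays titled GFP-, above 0.1 in 4 of 4 pairs, but of 0.0787 to 0.410 in arrays titled GFP+ and 0.0729 to 0.253 for fraction differences, above 0.1 in 3 of 4. The numbers were taken as pairing only in the first 2 cases. Alternatives were 3 other scalings, omission of genes below the 30th percentile, no variance trend, pools as random blocks throughout, a replicate block and omission of each pool.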

Additional observations from a re-analysis of the deposited data

Results flagged for a closer look

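Olfr221 stands out because all odor pools and all vehicle pools fell on opposite sides of the sort, with a difference of fraction contrasts of -5.81. The gene was chosen for this, so its limma call for the difference is not read as a test. Olfr74 (-1.16), Olfr1306 (-0.78), Lrrc42 (-0.47) and Sprtn (-0.69) showed the same reversal of sign in every pool. Olfr74 was singled out after its values were seen and the other 3 for likeness to the 2 receptors, and none of these 4 passed the limma threshold for the difference (adjusted p = 0.999 each).

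S100a5 in the vehicle arrays titled GFP- had 1 low array, pool 4 at 16.23 against 16.59 to 16.62 in the other 3. Its gap made up 0.923 of the group's range. Groups were flagged past a limit that lies below 0.923 and that about 1 in 20 groups pass by chance.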

How the results depend on the processing

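The 2 receptors kept the sign and, within 1 SD of the pools, the size of their difference of fraction contrasts under all 15 alternatives, from -6.42 to -5.44 for Olfr221 and from -3.38 to -2.76 for Olfr937. Only the scalings and the omission of a pool could move these values. Omission of dim genes, no variance trend, pools as random blocks and the replicate block leave them as they are in this balanced design, at -5.81 and -3.07. Leaving out odor pool 4 gave the lowest Olfr221 value and leaving out odor pool 2 the highest. The difference of Olfr937 between fractions in vehicle pools turned to 0.04 with arrays centred on the receptor median. The mean of both fractions of Olfr221 ran from -0.38 to 0.10 with a pool left out, so its sign is not settled (0.10 without odor pool 3, 0.02 without vehicle pool 4), and that of Olfr937 from -0.75 to -0.21. In the difference of fraction contrasts, 0 of the other MOR171 receptors and 0 of the nearest receptors were called with any pool left out, under the 3 scalings or with the replicate block.

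Counts of genes past the threshold depended more on the setting. Between fractions, median centring moved them to 14808 in odor pools and 14357 in vehicle pools, and the median of all genes to -0.53 and -0.51. Leaving out a pool gave 3709 to 5518 in odor pools and 3552 to 5143 in vehicle pools. MOR171 receptors lower in the arrays titled GFP+ numbered 16 to 25 in odor pools and 17 to 25 in vehicle pools over the 3 scalings. For the difference of fraction contrasts the count was 2 with receptor centring (both receptors), 0 without a variance trend and 0 with the replicate number as a block. It was 1 whichever pool was left out. Calls of the 2 receptors are not read here, since both were chosen on this contrast. In arrays titled GFP+ the count of 1 became 0 without dim genes, 0 without a variance trend, 12 with the replicate block and 0 to 8 with a pool left out (8 without odor pool 4, 1 without vehicle pool 2, 0 without any other). In arrays titled GFP- the count of 0 (limma; 1147 at an unadjusted p under 0.05) became 1 with receptor centring, 14 with the replicate block and 0 to 2 with a pool left out (2 without odor pool 4, 1 without vehicle pool 2 or 4). For the mean of both fractions it was 11 with the replicate block and 0 to 1 with a pool left out (1 without vehicle pool 2). In arrays titled GFP+ and in the fraction differences, 3 of the 4 odor pools correlated best with their own number. The causes were not tested. With Spearman's rho, 2 of the 5 most alike genes over pools were shared for each receptor, and 3 for Olfr221 and 1 for Olfr937 over arrays. Each receptor has 1 feature, so no other feature could be tried. In the odor fraction titled GFP+, 0 of 4 arrays of either receptor exceeded the 95th percentile of the negative controls, which limits the exact size of their differences.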

Other observations

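Olfr1022, singled out after its values were seen, had the highest odor minus vehicle difference of the other receptors in both fractions, 1.68 in arrays titled GFP+ and 2.49 in those titled GFP-, higher after odor in each. Its vehicle arrays titled GFP+ averaged 4.98, at the lowest of the negative control medians (4.98 to 5.59), so the value of 1.68 is set against a signal not above background. It kept its side of the sort, with fraction differences of -2.10 in odor pools and -1.28 in vehicle pools. It did not pass the limma threshold in arrays titled GFP+ (adjusted p = 0.702), in arrays titled GFP- (0.122) or over both (0.472). With the replicate number as a block it passed in arrays titled GFP- (limma, adjusted p = 0.0419).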
